A study of Mus musculus with 9 samples.

Results

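The livers of group M were set against those of group C in a mouse liver RNA-seq study. The labels mark the groups only by the letters M, A-C and C, and all 3 are liver of C57BL6J mice with total RNA extracted in Trizol. The labels give no diet, treatment, dose, age or sex for a letter, so M and C are compared by letter alone. Per the study's title and design text, it measured liver gene expression in mice fed alcohol in a liquid diet (the NIAAA model) with and without magnesium isoglycyrrhizinate, abbreviated MgIG. Group M has 3 libraries, numbered 24, 26 and 27, and group C has 3, numbered 2, 3 and 4. These are 6 of the 9 libraries of the series, and the other 3 form group A-C. The strain label of C replicate 4 reads C57BL7J. No label says that the libraries came from separate animals, so p-values measure the spread between these libraries, which may be technical. Every gene with a TPM (reads per unit of gene length, scaled to the same total in every library) reaching 1 in 3 or more of all 9 libraries was tested, which is 11086 of 31964 gene IDs. Of these, 20 stayed under 1 TPM in all M and C libraries.

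The libraries held 53879277 to 57046246 recovered reads in M and 45597163 to 46631110 in C. Levels below are scaled TPM, that is TPM divided by a factor per library (TMM) that lines up the bulk of the genes. Changes are differences of log2(scaled TPM + 1), M minus C, which understate the change of low genes. A gene is called when its adjusted p (limma, Benjamini-Hochberg over all 11086 genes) is under 0.05. The first principal component of all 9 libraries, with 55.1% of the variance, placed M replicates 24, 26 and 27 at 8.55, -32.1 and -33.6, and C replicates 2, 3 and 4 at 38.8, 39.9 and 33.3. M replicate 24 thus lay nearest to C. Mitochondrially encoded mRNAs took 14.5%, 12.6% and 12.4% of the TPM in M and 27.6%, 15.4% and 15.1% in C, so C replicate 2 stood apart. The labels name the cell type as hepatocyte, and hepatocyte marker genes took 13.5%, 13.1% and 14.1% of the TPM in M and 15.5%, 17.2% and 16.2% in C. Markers of other liver cells were present too, with endothelial markers at 185, 247 and 213 summed scaled TPM in M and 242, 145 and 170.5 in C, and Kupffer cell markers at 289, 337 and 320.0 in M and 225, 243 and 303 in C. In such bulk samples, fewer cells of a type and less RNA per cell cannot be told apart.

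Between M and C livers, 1030 genes (9.29% of those tested) were called higher in M and 751 (6.77%) lower. The median change over all 11086 genes was 0.05. Of the called genes, 245 rose and 207 fell by at least 1 on the log2 scale, and 30 rose and 40 fell by at least 2. In the TPM as deposited, without TMM scaling, the split was 2931 higher (26.4%) to 351 lower (3.17%), with the median of all genes shifted to 0.27. All 1030 genes called higher with TMM were also called higher there, and 351 of the 751 called lower were called lower there. M and C libraries did not overlap in 41.6% of all genes, with M above C in 23.7% and M below C in 17.9%. Only 165 genes, 106 higher and 59 lower, were called in all 9 fits that left out 1 library each. The number called was lowest without M replicate 27 (122 higher and 72 lower) or C replicate 3 (128 and 75), followed by C replicate 2 (315 and 273) and M replicate 26 (347 and 200), and highest without M replicate 24 (1414 and 1098). Without A-C replicate 9, which enters only the shared estimate of the spread, 574 were called higher and 431 lower.

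**Figure D1:**
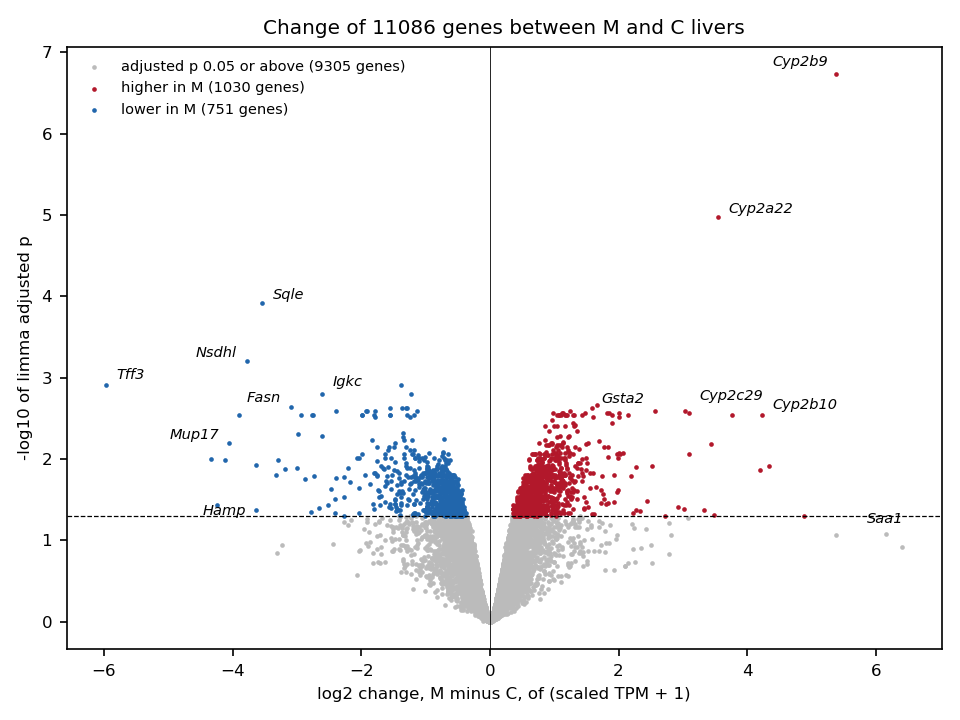
Each point is 1 of 11086 genes, with the change of M minus C in log2(scaled TPM + 1) on the x axis and -log10 of limma's adjusted p on the y axis. Cyp2b9, at a change of 5.38, has the smallest adjusted p, and Tff3, at -5.96, lies farthest to the left.

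Hepatocytes build cholesterol from acetyl-CoA through mevalonate, squalene and lanosterol. The genes of this route are switched on together by the transcription factor SREBP2 when sterols in the ER membrane run low, and are among the most tightly co-regulated genes in liver. Cytochromes P450, conjugating enzymes, major urinary proteins and acute phase proteins are other liver programs that respond to hormones, xenobiotics and cytokines.

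Cholesterol synthesis genes fell together in M livers. Of 26 tested genes of cholesterol synthesis and uptake, 17 fell and none rose by limma (1 higher at an unadjusted p under 0.05), where 16.1% of all genes were called in either direction, and the list's median change was -1.38 against 0.05 over all genes. The count stayed between 7 (without C replicate 3) and 19 (without M replicate 24 or A-C replicate 12) when 1 library was left out, with 8 without M replicate 26, 9 without M replicate 27 and 11 without C replicate 4. In the TPM as deposited it was 15. M lay below C without overlap in 22 of the 26 genes and above C in 1, which was not called. Over all genes, M lay below C without overlap in 17.9% and above C in 23.7%.

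Sequences from 3 of these promoters are shown because the genes encode early and late steps of the route and their calls held in all 9 fits that left out 1 library. They are the 250 bases before the RefSeq transcription start, build GRCm38.p6 (mm10), 5′ to 3′ on the gene's strand. The Hmgcs1 promoter is chr13:119690101-119690350 on the plus strand, that of Cyp51 is chr5:4104698-4104947 on the minus strand and that of Lss is chr10:76531355-76531604 on the plus strand. Capitals mark a sterol element, searched as TCACNCCAC, and the CCAAT box, searched as CCAAT, each on both strands, so that CCAAT on the other strand reads ATTGG.
Hmgcs1: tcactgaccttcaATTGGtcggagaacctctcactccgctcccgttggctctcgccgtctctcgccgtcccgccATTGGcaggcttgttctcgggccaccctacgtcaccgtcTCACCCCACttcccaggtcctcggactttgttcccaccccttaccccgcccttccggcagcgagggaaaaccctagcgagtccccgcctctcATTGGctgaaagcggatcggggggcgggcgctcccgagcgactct
Cyp51: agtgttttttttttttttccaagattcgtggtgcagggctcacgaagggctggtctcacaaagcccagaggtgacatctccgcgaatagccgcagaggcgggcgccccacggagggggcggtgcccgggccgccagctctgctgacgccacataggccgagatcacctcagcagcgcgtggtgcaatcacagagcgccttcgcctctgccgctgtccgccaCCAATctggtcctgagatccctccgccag
Lss: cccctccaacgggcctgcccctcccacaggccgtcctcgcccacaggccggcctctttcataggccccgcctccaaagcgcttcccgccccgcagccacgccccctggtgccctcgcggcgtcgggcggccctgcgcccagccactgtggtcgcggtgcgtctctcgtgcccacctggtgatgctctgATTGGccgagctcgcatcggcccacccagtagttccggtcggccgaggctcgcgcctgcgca
The letters TCACNCCAC were found in 1 of 21 promoters of the list, that of Hmgcs1, and in 1.05% of all 32851 mouse promoters of the same length. CCAAT was found in 17 of the 21 promoters, and in 33.8% of all promoters. It was present in 12 of the 13 called genes that have a promoter in the table. Of all 18 list genes with a promoter, called or not, 17 had it, so it did not set the called genes apart. The 21 promoters belong to 18 of the 26 genes. The motifs and the genes printed were chosen after the expression values were known, and a match is a run of letters, not a bound site.

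The steps up to squalene are carried by Hmgcs1 and Idi1 among others. Hmgcs1, which makes HMG-CoA, had 26.4, 23.5 and 23.2 scaled TPM in M livers, against 80.5, 119 and 91.3 in C livers (log2 change -1.93, SE 0.20, adjusted p = 0.00257). Idi1, which makes dimethylallyl pyrophosphate, had 1.505, 0.704 and 2.09 in M and 4.08, 8.22 and 9.69 in C (-1.75, SE 0.34, adjusted p = 0.0162). All M libraries lay below all C libraries for both genes, and the M values of Hmgcs1 lay close together. The call of Idi1 was lost without M replicate 26 or C replicate 3 (adjusted p up to 0.0705).

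The steepest falls were in the sterol-forming steps after squalene. Sqle, squalene epoxidase (chr15:59315077-59331192, mm10), had 1.02, 1.01 and 1.41 scaled TPM in M livers, against 17.8, 27.1 and 28.0 in C livers (log2 change -3.54, SE 0.21, adjusted p = 0.000121). Nsdhl, a C4 decarboxylating dehydrogenase (chrX:72918557-72958514, mm10), had 4.82, 2.67 and 3.85 in M, against 59.7, 73.8 and 57.0 in C (-3.77, SE 0.27, adjusted p = 0.000628). The M mean was 0.0472 times the C mean for Sqle and 0.0595 times for Nsdhl, and no M library came near a C library. Cyp51, lanosterol demethylase, had 13.7, 17.3 and 17.0 in M and 47.4, 80.0 and 76.7 in C (-1.99, adjusted p = 0.0029). Dhcr7, the last reductase, had 6.45, 3.07 and 2.61 in M and 24.7, 33.6 and 26.9 in C (-2.61, adjusted p = 0.00519). Lss, which folds squalene epoxide into lanosterol, had 3.76, 3.50 and 3.71 in M and 9.32, 10.4 and 8.95 in C (-1.18, adjusted p = 0.00289). Tm7sf2, a sterol C14 reductase, averaged 21.3 ± 3.33 in M and 64.2 ± 8.75 in C (SD, n = 3 each, adjusted p = 0.0029). The calls of these 6 genes held in all 9 fits that left out 1 library. Msmo1, which removes the C4 methyl groups with Nsdhl, had 17.7, 5.78 and 6.56 in M and 28.7, 51.5 and 54.7 in C (-2.17, adjusted p = 0.0193), a call lost without M replicate 26, M replicate 27, C replicate 3 or C replicate 4 (up to 0.0871).

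Not every gene of the list was called. Insig1, which retains the SREBP complex in the ER, had 115, 46.2 and 73.8 scaled TPM in M and 122, 195 and 183 in C (log2 change -1.15, adjusted p = 0.059). Srebf2, the gene of SREBP2 itself, had 10.97, 8.75 and 10.4 in M and 12.1, 12.9 and 11.4 in C (-0.26, adjusted p = 0.221), and in the TPM as deposited its change was 0.0016. M lay below C in scaled TPM for both, and neither was called.

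**Figure D2:**
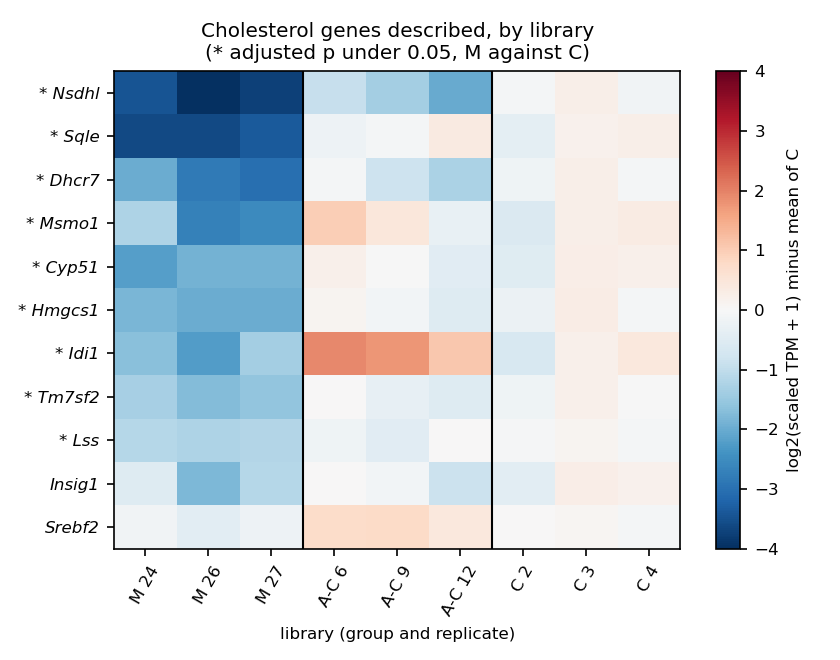
Heat map of the 11 cholesterol genes described here, out of 26 tested, with 1 column per M, A-C and C library and colour giving log2(scaled TPM + 1) minus the C mean. Sqle and Nsdhl fall farthest in M; Srebf2 and Insig1 were not called.

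Genes known to differ between male and female mouse liver changed in both directions, those higher in males downward and most called genes higher in females upward. Their sex bias is set in adults by the pattern of growth hormone release acting through STAT5B. Of 31 tested genes known to be higher in male mouse liver, 19 fell in M livers and none rose by limma (none at an unadjusted p under 0.05 either). That is 61.3% called, against 16.1% of all genes in either direction and 6.77% lower. The median change was -2.20. The number that fell was 2 without C replicate 3, 3 without M replicate 27 and 23 without M replicate 24. Of 16 tested genes known to be higher in female mouse liver, 6 rose and 1 fell, which is 43.75% called, against 16.1% of all genes. The median change was 0.81 (5 to 8 higher when 1 library was left out), and 11 more listed genes were below the level filter. The Y-linked RNA helicase gene Ddx3y had 27.2, 26.5 and 33.7 scaled TPM in M and 26.7, 24.3 and 26.5 in C, and Eif2s3y had 27.3, 26.8 and 30.0 in M and 31.1, 29.1 and 30.6 in C. Both Y-linked genes were expressed in all 6 livers, with ranges that overlapped between M and C.

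Major urinary proteins, small secreted pheromone carriers, were well represented among the male-biased genes. The 22 Mup genes together took 2.59%, 1.64% and 2.16% of the TPM in M and 4.54%, 6.93% and 8.13% in C. Mup20, which encodes the male pheromone darcin, had 3033, 1509.7 and 2909 scaled TPM in M livers, against 15191, 29182 and 28826 in C livers (log2 change -3.30, SE 0.54, adjusted p = 0.0102). Mup17 had 299, 212 and 216 in M and 1833, 4289 and 8064 in C (-4.05, SE 0.56, adjusted p = 0.00638). Mup18 had 6.79, 3.52 and 2.77 in M and 30.5, 119 and 289 in C (-4.34, adjusted p = 0.00999). The M libraries lay below the C libraries in each, and C replicate 2 was the lowest C library each time. Mup genes are near-identical copies, so reads may be split among them and single Mup values are uncertain. Calls of several Mup genes in the male-biased list may therefore not be separate observations. The call of Mup20 was lost without C replicate 3 (0.0504) and that of Mup18 without M replicate 27 or C replicate 3 (up to 0.0528).

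Other male-biased genes fell as well. Cyp2u1, a fatty acid hydroxylase, had 2.46, 3.62 and 1.98 scaled TPM in M livers and 9.21, 14.4 and 18.2 in C livers (log2 change -1.99, SE 0.24, adjusted p = 0.00291), in all 9 fits that left out 1 library. Selenbp2, a selenium-binding protein, had 284, 18.4 and 10.5 in M and 340.1, 878 and 1439.7 in C (-4.24, SE 1.11, adjusted p = 0.0365). M replicate 24 sat close to C replicate 2 there, far above the other 2 M libraries. Cyp4a12a, which makes the arachidonate product 20-HETE, had 74.1, 52.1 and 39.7 in M and 106, 215 and 255 in C (-1.73, adjusted p = 0.0296). Of the growth hormone and IGF axis, 2 of 20 tested genes fell and none rose by limma (5 higher at an unadjusted p under 0.05). The share called lay below the 16.1% over all genes, and the median change of the list was 0.24. In the TPM as deposited 1 fell and 5 rose, with a median of 0.47, and no gene was called without M replicate 27 or C replicate 3. Igf1, the liver-made growth factor, had 122, 116 and 90.0 in M and 190.5, 171 and 193 in C (-0.76, adjusted p = 0.0303). Igfbp3, its main plasma carrier, had 8.69, 6.33 and 5.67 in M and 22.0, 15.6 and 13.6 in C (-1.19, adjusted p = 0.0136). The calls of Selenbp2, Cyp4a12a and Igf1 were lost without M replicate 26, M replicate 27, A-C replicate 9, C replicate 3 or C replicate 4, and for Selenbp2 and Igf1 also without C replicate 2 (adjusted p up to 0.132). Igf1 was not called in the TPM as deposited (0.097), and Igfbp3 lost its call without M replicate 27 or C replicate 3 (up to 0.0682).

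The female-biased genes that rose are mostly cytochromes P450, the enzymes that oxidise drugs, steroids and fatty acids. Cyp2b9, a female-predominant phenobarbital-type P450 (chr7:26173411-26210661, mm10), had 37.6, 44.5 and 42.7 scaled TPM in M livers, against 0, 0.0521 and 0 in C livers (log2 change 5.38, SE 0.14, adjusted p = 1.87e-07). It was close to absent in C and had the smallest adjusted p of all genes. Cyp2b13, its neighbour in the same subfamily, had 1.94, 1.69 and 1.29 in M and was at 0 in all 3 C libraries (adjusted p = 0.00745). Cyp2a22 (chr7:26931631-26939384, mm10) had 19.5, 24.5 and 19.3 in M and 1.19, 0.879 and 0.640 in C (3.54, SE 0.15, adjusted p = 1.06e-05). The lowest M library exceeded the highest C library for all 3 genes, and each call held in all 9 fits that left out 1 library. The female-biased gene that fell was Cyp17a1, the steroid 17-hydroxylase and lyase (chr19:46667165-46673172, mm10), at 6.88, 6.26 and 4.999 in M and 49.8, 19.2 and 22.1 in C (-2.04, SE 0.33, adjusted p = 0.00981), a call lost without M replicate 27 (0.0528). Cyp2b genes share long stretches of sequence, so reads may be split among them.

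Xenobiotic P450 genes rose more often than they fell. Of 38 tested P450 genes and their partners, 12 rose and 1 fell, with a median change of 0.39. Calls made up 34.2% of the list, against 16.1% of all genes. Without C replicate 2, C replicate 3 or M replicate 27, 6 rose, and without A-C replicate 12, 15 rose. Cyp2b10, the classic target of the receptor CAR, had 25.6, 67.4 and 17.8 scaled TPM in M livers and 1.97, 0.231 and 0.427 in C livers (log2 change 4.22, SE 0.47, adjusted p = 0.00286). Cyp2c29 (chr19:39269405-39330713, mm10) had 1134, 1095 and 1777 in M and 149, 129.6 and 182 in C (3.09, SE 0.33, adjusted p = 0.00269). Cyp3a13 had 246, 265 and 362 in M and 95.8, 88.1 and 98.2 in C (1.6, adjusted p = 0.00305). These 3 calls held in all 9 fits that left out 1 library. Cyp3a11, the main drug-metabolising P450 of its family in mouse, had 1066, 907 and 1941 in M and 397, 353 and 368 in C (1.73, adjusted p = 0.0345). M exceeded C throughout, and the call of Cyp3a11 was lost without M replicate 26, M replicate 27, A-C replicate 9 or any C library (up to 0.129).

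Among 47 tested conjugating enzymes, 5 rose and 3 fell, with a median change of -0.18 (8 and 2 with a median of 0.10 in the TPM as deposited). The share called, 17.0%, was near the 16.1% over all genes. The number that fell was 8 without M replicate 24, and 1 without M replicate 26 (median 0.04), M replicate 27, A-C replicate 9, C replicate 3 or C replicate 4. Ugt1a9, a glucuronosyltransferase, had 49.4, 39.3 and 67.6 scaled TPM in M livers and 3.41, 7.63 and 5.63 in C livers (log2 change 3.04, SE 0.32, adjusted p = 0.00257). Ugt1a1, which conjugates bilirubin, had 89.9, 53.1 and 79.5 in M and 17.1, 19.4 and 26.1 in C (1.77, adjusted p = 0.00712). Ugt3a1, which uses N-acetylglucosamine, had 38.3, 35.9 and 47.1 in M and 6.18, 10.4 and 12.98 in C (1.98, adjusted p = 0.00876). M lay above C by a wide gap in all 3; Ugt1a genes share their last exons, so reads there may be split among them. Gsta2, an alpha glutathione transferase, had 93.6, 83.8 and 77.6 in M and 11.6, 14.8 and 14.4 in C (2.56, SE 0.26, adjusted p = 0.00257). Gstm6, of the mu class, moved the other way, with 47.4, 35.4 and 41.3 in M and 96.1, 102 and 92.7 in C (-1.21, adjusted p = 0.00581). These 5 calls held in all 9 fits that left out 1 library.

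**Figure D3:**
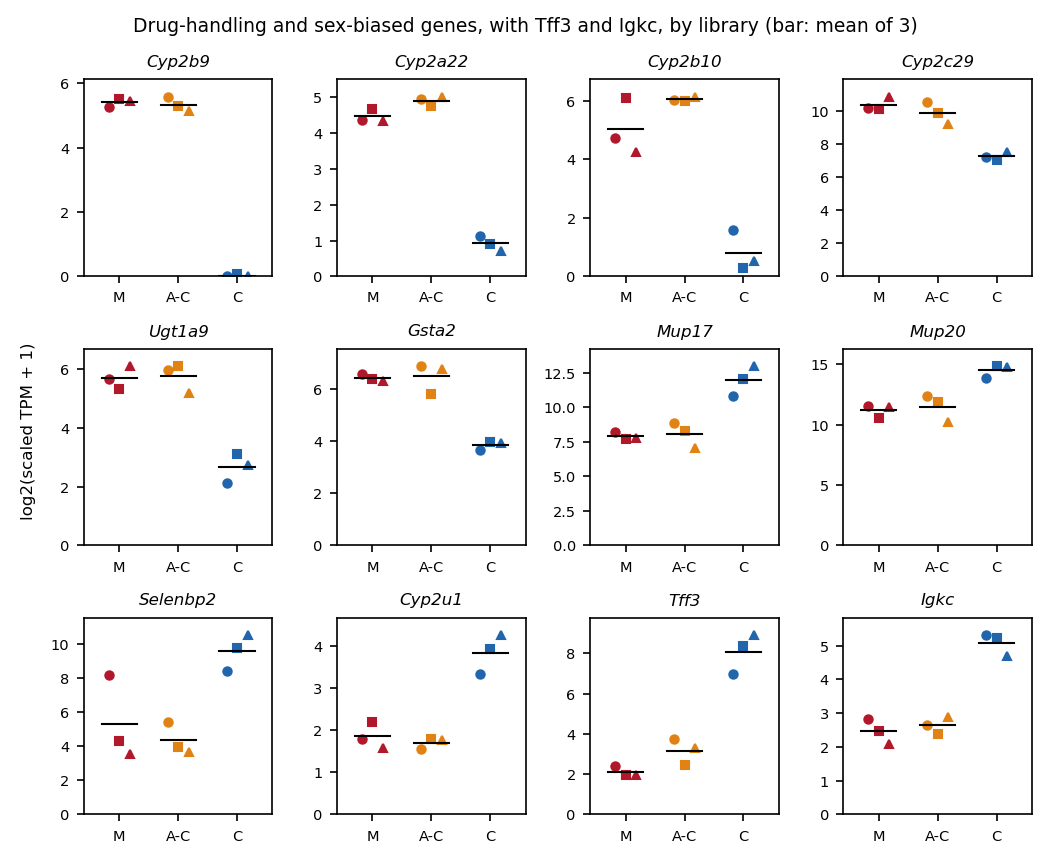
Log2(scaled TPM + 1) of 12 genes per library (y axes start at 0), in M, A-C and C from left to right; circle, square and triangle are the replicates in the order of their numbers and the bar is the mean of 3. In scaled TPM, Cyp2b9 is at 37.6 to 44.5 in M and at most 0.0521 in C, and Tff3 is at 2.89 to 4.38 in M and 126 to 472 in C.

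Fatty acid synthesis genes fell in part. Of 24 tested genes of fatty acid and triglyceride synthesis, 8 fell and none rose by limma (none higher at an unadjusted p under 0.05 either). That is 33.3% called, against 16.1% of all genes. The median change was -0.61, and 3 fell without C replicate 3 and 9 without M replicate 24. Fasn, fatty acid synthase (chr11:120805846-120824547, mm10), had 21.0, 17.5 and 24.7 scaled TPM in M livers, against 185, 205 and 167 in C livers (log2 change -3.09, SE 0.29, adjusted p = 0.00227). Fads1, the delta-5 desaturase of polyunsaturated fatty acids, had 62.7, 23.8 and 39.3 in M and 339, 344 and 269 in C (-2.99, SE 0.39, adjusted p = 0.00487). Both groups were far apart in both genes, and the calls held in all 9 fits that left out 1 library. Thrsp, the lipogenic nuclear protein Spot14, had 738, 161 and 157 in M and 2099, 1982 and 1824 in C (-2.88, adjusted p = 0.0175). Fads2, the delta-6 desaturase, had 258, 47.9 and 82.2 in M and 479.7, 713 and 574 in C (-2.52, adjusted p = 0.0368). Acly, which supplies cytosolic acetyl-CoA, had 50.4, 22.9 and 47.1 in M and 118, 101 and 103 in C (-1.47, adjusted p = 0.0319). M replicate 24 was the highest M library for these 3 and still lay below C. Elovl5, an elongase, averaged 127 ± 7.41 in M and 285 ± 45.1 in C (SD, n = 3 each, adjusted p = 0.0186). Thrsp and Elovl5 lost their calls without M replicate 26, M replicate 27, C replicate 2 or C replicate 3 (up to 0.0808), and Fads2 and Acly also without A-C replicate 9 or C replicate 4 (up to 0.129).

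The patatin-type lipases Pnpla5 and Pnpla3 were low in both groups. Pnpla5 had 0.0552, 0 and 0.0185 scaled TPM in M livers and 1.64, 1.89 and 1.499 in C livers (log2 change -1.38, adjusted p = 0.00124). Pnpla3 had 0.258, 0.448 and 0.546 in M and 3.50, 2.81 and 1.49 in C (-1.31, adjusted p = 0.0112), and without C replicate 3 it was not called (0.0547). Other central genes of the route were not called. Scd1, the delta-9 desaturase, had 1575, 1700.5 and 3205 in M and 3025, 3562 and 2579 in C (-0.56, adjusted p = 0.232). Acaca, acetyl-CoA carboxylase, had 10.1, 13.6 and 16.3 in M and 19.99, 21.9 and 17.3 in C (-0.55, adjusted p = 0.238). Srebf1, the gene of the lipogenic factor SREBP1, had 40.8, 18.1 and 44.0 in M and 42.4, 62.1 and 57.0 in C (-0.72, adjusted p = 0.22). M and C overlapped for Scd1 and Srebf1.

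Fatty acid oxidation moved the other way. Of 37 tested genes of fatty acid oxidation and of PPAR alpha targets, 11 rose and 1 fell, with a median change of 0.50. Among these 37, 32.4% were called, against 16.1% of all genes. The number that rose was 3 without C replicate 3 or M replicate 27, 15 without A-C replicate 12 and 18 in the TPM as deposited. PPAR alpha is the fatty acid receptor that switches on mitochondrial, peroxisomal and microsomal oxidation. Of the microsomal omega-hydroxylases it controls, Cyp4a14 (chr4:115486200-115496142, mm10) had 290.2, 613 and 480.0 scaled TPM in M livers and 69.5, 13.4 and 9.09 in C livers (log2 change 4.34, SE 0.75, adjusted p = 0.0122). Cyp4a10 had 729, 569 and 513 in M and 124, 45.5 and 58.7 in C (3.09, SE 0.47, adjusted p = 0.00875). C replicate 2 was the highest C library for both and still far below M. The gene of the list that fell is the male-biased Cyp4a12a, given above. In mitochondria, Acadvl, the very-long-chain acyl-CoA dehydrogenase, had 165, 139.7 and 175 in M and 24.8, 45.6 and 50.9 in C (2.01, SE 0.25, adjusted p = 0.00307). Etfdh, which passes its electrons to the respiratory chain, had 77.8, 68.2 and 74.5 in M and 25.5, 29.8 and 39.0 in C (1.22, SE 0.16, adjusted p = 0.00531). Cyp4a10, Acadvl and Etfdh were called in all 9 fits that left out 1 library, and Cyp4a14 was not without M replicate 27 or C replicate 3 (up to 0.0593). Cyp4a genes are close paralogs, so reads may be split among them.

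Acnat2, a peroxisomal acyltransferase, had 57.4, 193 and 185 scaled TPM in M livers and 13.8, 7.64 and 12.1 in C livers (log2 change 3.43, SE 0.48, adjusted p = 0.00652), in all 9 fits that left out 1 library. Pdk4, a kinase that inhibits pyruvate dehydrogenase, had 10.03, 9.41 and 10.2 in M and 4.86, 3.12 and 2.71 in C (1.28, adjusted p = 0.0182). M lay above C in both genes. Cpt1a, the gate of mitochondrial entry, had 113, 63.7 and 90.6 in M and 99.9, 102 and 97.1 in C (-0.20, adjusted p = 0.535), and its sign turned in the TPM as deposited. The groups overlapped for Cpt1a. The call of Pdk4 was lost without M replicate 26, M replicate 27, C replicate 3 or C replicate 4 (up to 0.0768).

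Of 25 tested genes of fatty acid uptake, binding and lipid droplets, 2 rose and 2 fell, with a median change of -0.24 (6 and 2 with a median of 0.04 in the TPM as deposited). The share called was 16%, next to 16.1% over all genes, and leaving out 1 library gave 1 to 4 that rose and 0 to 5 that fell. Cd36, a fatty acid translocase, had 21.4, 53.1 and 40.1 scaled TPM in M livers and 8.18, 6.11 and 9.45 in C livers (log2 change 2.06, SE 0.31, adjusted p = 0.00835), in all 9 fits that left out 1 library. Fabp1, the liver fatty acid binding protein, had 8960.2, 6167 and 7696 in M and 19094, 30198 and 30615 in C (-1.79, SE 0.34, adjusted p = 0.0151). Fabp5 had 6.35, 12.8 and 8.67 in M and 28.8, 69.8 and 32.9 in C (-2.06, adjusted p = 0.00981). None of these 3 genes overlapped between M and C. The droplet coat gene Plin2 had 145, 315 and 316 in M and 83.8, 93.9 and 92.4 in C (1.43, adjusted p = 0.053), and the droplet fusion gene Cidec had 7.41, 7.91 and 6.50 in M and 5.08, 5.31 and 5.51 in C (0.39, adjusted p = 0.533). Neither was called, although M exceeded C in every library. Fabp5 lost its call without M replicate 27 (0.0514) and Fabp1 without M replicate 26, M replicate 27 or C replicate 3 (up to 0.0699).

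Of 24 tested apolipoprotein and lipoprotein-handling genes, 6 fell and 1 rose, with a median change of -0.34. Calls made up 29.2% of the list, against 16.1% of all genes. When 1 library was left out, 2 to 9 fell, and in the TPM as deposited 4 fell and 2 rose. Apoa1, the main protein of HDL (chr9:46228580-46230466, mm10), had 12630.0, 8512 and 8481 scaled TPM in M livers, against 35978, 35999 and 29539 in C livers (log2 change -1.80, SE 0.21, adjusted p = 0.0029). Apoa4, its neighbour in the same gene cluster, had 158, 123 and 134 in M and 546, 530.2 and 374 in C (-1.78, SE 0.19, adjusted p = 0.00257). Both fell without overlap, with ratios of the M mean to the C mean of 0.292 and 0.286, in all 9 fits that left out 1 library. Apoc3, of the same cluster, had 4413, 3769 and 3768 in M and 8658, 7666 and 6839.8 in C (-0.95, adjusted p = 0.0148). Pltp, the phospholipid transfer protein, had 6.60, 6.83 and 6.71 in M and 38.2, 32.7 and 13.9 in C (-1.81, adjusted p = 0.0151). The gene that rose was Apob, the core protein of VLDL, at 712, 674 and 953 in M and 447, 477 and 532 in C (0.67, adjusted p = 0.0337). Calls were lost without M replicate 27 or C replicate 3 for Pltp (up to 0.0684), also without M replicate 26 for Apoc3 (up to 0.0731), and without any of M replicates 26 and 27, A-C replicate 9 or the 3 C libraries for Apob (up to 0.127).

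Acute phase proteins, which the liver secretes under IL-6 and IL-1, were higher in M livers but spread widely among them. Of 31 tested acute phase genes, 9 rose and 1 fell, which is 32.3% called against 16.1% over all genes. The median change was 2.10, and M lay above C without overlap in 23 of the 31, against 23.7% of all genes. The list took 4.89%, 17.1% and 12.9% of the TPM in M and 2.98%, 3.32% and 3.48% in C. M replicate 24 was thus near the C level, and the other 2 M libraries well above it. The number called higher ranged from 1 (without C replicate 3 or M replicate 27) to 20 (without M replicate 24), and was 17 in a fit of the 6 M and C libraries alone and 16 in the TPM as deposited. The list of chemokines and neutrophil markers moved with these levels, at 125, 279 and 348 summed scaled TPM in M and 129, 141 and 141 in C, and its part in the result was not tested. The neutrophil gene S100a8 had 0.691, 15.9 and 14.7 scaled TPM in M and 0.217, 2.603 and 0.866 in C, and S100a9 had 3.22, 37.5 and 29.8 in M and 0.769, 2.62 and 3.26 in C (adjusted p = 0.231 and 0.115 by limma). Elane, Mmp8 and Cxcr2, below the level filter, were also highest in M replicates 26 and 27, at up to 1.25, 0.636 and 0.885 in M and up to 0.204, 0.0201 and 0.208 in C. Camp, also below the filter, was not, with 0.158, 0 and 0.159 in M and 0, 0.451 and 0 in C. The list of chemokines and neutrophil markers had 13 members below the filter, where values are low and uncertain. Ly6g was at 0, 0.164 and 0 in M and at 0 in all C libraries, and Mpo was at 0 in all 6.

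Serum amyloid A1, the strongest acute phase reactant of the mouse, had 173, 9914 and 5433 scaled TPM of Saa1 in M livers, against 26.997, 28.9 and 30.0 in C livers (log2 change 6.15, SE 2.20, adjusted p = 0.0829). Saa2 had 34.1, 8578 and 3790.5 in M and 9.39, 16.2 and 9.37 in C (6.41, SE 2.64, adjusted p = 0.121). Lcn2, the siderophore-binding lipocalin, had 38.4, 1694 and 665 in M and 15.02, 5.99 and 4.55 in C (5.38, SE 1.94, adjusted p = 0.0858). Despite M-to-C ratios of means of 181, 355 and 93.8, none of the 3 was called, and the M libraries differed among themselves by a large factor. Genes with a narrower spread in M were called. Orm2, an acid glycoprotein, had 44.7, 733 and 927 in M and 9.97, 9.51 and 9.50 in C (4.88, SE 1.43, adjusted p = 0.0496). Orm3 had 39.0, 135 and 75.3 in M and 4.41, 3.98 and 1.49 in C (4.20, SE 0.76, adjusted p = 0.0138). Orm genes are near-identical copies, so their reads may be split. Fga, the fibrinogen alpha chain, had 3179.8, 15778 and 14506 in M and 1234, 1397 and 1469 in C (2.72, adjusted p = 0.0496).

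Lbp, the LPS-binding protein, had 64.6, 138 and 121 scaled TPM in M livers and 22.8, 19.6 and 19.1 in C livers (log2 change 2.27, adjusted p = 0.0124). Crp, a pentraxin with a small acute phase role in mouse, had 323, 1020.0 and 1116 in M and 136, 155 and 180.5 in C (2.19, adjusted p = 0.0162). Steap4, a metalloreductase induced by IL-6, had 132, 388 and 718 in M and 28.8, 30.3 and 38.0 in C (3.33, SE 0.93, adjusted p = 0.0429). M replicate 24 was the lowest M library in each and still above all C libraries. Calls were lost without M replicate 27 or C replicate 3 for Orm3 and Lbp (adjusted p up to 0.0639), also without M replicate 26 or C replicate 2 for Crp (0.0731), and also without A-C replicate 9 or C replicate 4 for Orm2, Fga and Steap4 (up to 0.175).

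The member of the acute phase list that fell was Hamp, which encodes hepcidin, the hormone that blocks iron export (chr7:30942368-30944032, mm10). Hamp had 67.7, 905 and 1211 scaled TPM in M livers, against 6558, 5522 and 3965 in C livers (log2 change -3.63, SE 1.01, adjusted p = 0.0428). M replicate 24, the library with the lowest acute phase level in M, also had the lowest Hamp. Id1, a target of BMP signalling, the other input to Hamp, had 3.20, 3.65 and 5.83 in M and 19.2, 11.4 and 9.93 in C (-1.45, SE 0.27, adjusted p = 0.0139). Both genes were lower in all M libraries than in all C libraries. The Hamp call was lost without M replicate 26, M replicate 27, A-C replicate 9 or any C library (up to 0.122), and the Id1 call without C replicate 3 (0.0504).

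Complement genes mostly rose where they were called. Of 29 tested, 6 rose and 2 fell, which is 27.6% called, against 16.1% of all genes. The median change was 0.26 (12 and 0 in the TPM as deposited, and 2 to 7 that rose when 1 library was left out). C3, the central component (chr17:57203970-57228136, mm10), had 2776, 4636 and 5672 scaled TPM in M livers and 875, 1113 and 1121 in C livers (log2 change 2.02, SE 0.31, adjusted p = 0.00875). Cfb, factor B of the alternative pathway, had 4.81, 5.31 and 9.36 in M and 0.728, 0.830 and 1.31 in C (1.90, SE 0.24, adjusted p = 0.00356). Both calls held in all 9 fits that left out 1 library. Cfd, factor D of the same pathway and also an adipocyte product, had 11.7, 22.4 and 9.25 in M and 2.56, 6.04 and 2.99 in C (1.64, adjusted p = 0.022), a call lost without M replicate 26, M replicate 27, C replicate 2 or C replicate 4 (up to 0.0718). The adipocyte gene Adipoq was at most 0.0579 scaled TPM in any M or C library.

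Of 26 tested genes of IL-6, STAT3 and NF-kB signalling, 3 rose and none fell by limma (1 lower at an unadjusted p under 0.05), with a median change of 0.40. The share called, 11.5%, was below the 16.1% over all genes. The number that rose was 1 without M replicate 26, M replicate 27 or any C library, 9 without M replicate 24 and 7 in the TPM as deposited. Stat3, the factor that drives most acute phase genes, had 35.5, 41.6 and 71.1 scaled TPM in M livers and 11.2, 13.1 and 13.1 in C livers (log2 change 1.84, SE 0.29, adjusted p = 0.00932), in all 9 fits that left out 1 library. Il6st, the shared signalling receptor gp130, had 25.7, 42.3 and 54.9 in M and 16.8, 13.8 and 15.1 in C (1.31, adjusted p = 0.0238), a call lost without M replicate 26, M replicate 27 or any C library (up to 0.0933). All M libraries exceeded all C libraries for both. The cytokine genes themselves were low, with Il1b at 0.230, 1.37 and 0.823 in M and 0.307 to 0.368 in C, and Tnf at up to 0.165 in M and up to 0.417 in C. Plasma carriers that fall in inflammation were called in 3 of 21 tested, all lower, with a median change of -0.37. At an unadjusted p under 0.05, 1 was higher, and 1 to 6 were called lower when 1 library was left out. The share called, 14.3%, was below the 16.1% over all genes. Serpina1e, an alpha-1 antitrypsin copy that is also male-biased, had 3029, 952 and 1045 in M and 5676, 17339 and 22945 in C (-3.18, adjusted p = 0.0134), a call lost without M replicate 27 or C replicate 3 (up to 0.0671). Serpina1 genes are near-identical copies. Albumin, with 49858, 46762 and 62727 of Alb in M and 78333, 82746 and 80992 in C, was lower in each M library and not called (-0.61, adjusted p = 0.117).

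**Figure D4:**
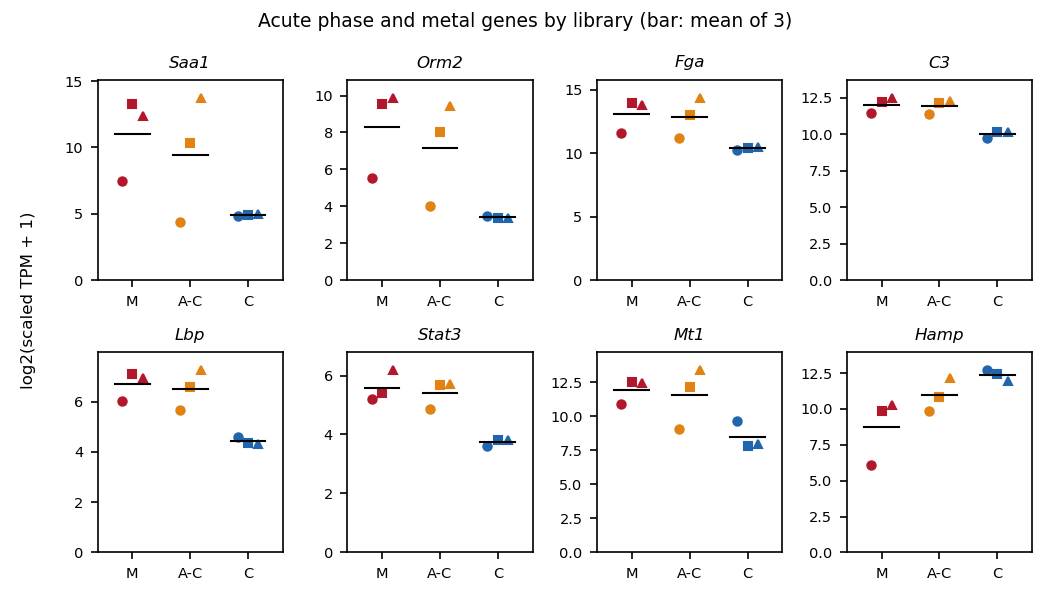
Log2(scaled TPM + 1) of 8 acute phase, complement, signalling and metal genes per library, in M, A-C and C from left to right; circle, square and triangle are the replicates in the order of their numbers and the bar is the mean of 3. M replicate 24 (circle) is the lowest M library for Saa1, Orm2, Fga, C3, Lbp, Stat3, Mt1 and Hamp.

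The ER folding program had a raised median but few calls, at 11.8% of its tested genes against 16.1% of all genes. Of 34 tested genes of ER stress and the integrated stress response, 4 rose and none fell by limma (none lower at an unadjusted p under 0.05 either; 0 to 9 rose when 1 library was left out), and the median change was 1.01. The ER stress element, searched on both strands as CCAAT and CCACG with 9 bases between them, was found in 9 of 33 promoters of the list and in 0.113% of all promoters. Of those 9, the genes Canx and Dnajc3 were called. Their promoters, 250 bases before the RefSeq start on build GRCm38.p6 (mm10), are chr11:50325674-50325923 on the minus strand for Canx and chr14:118937682-118937931 on the plus strand for Dnajc3. They are shown because they carry the element, marked in capitals.
Canx: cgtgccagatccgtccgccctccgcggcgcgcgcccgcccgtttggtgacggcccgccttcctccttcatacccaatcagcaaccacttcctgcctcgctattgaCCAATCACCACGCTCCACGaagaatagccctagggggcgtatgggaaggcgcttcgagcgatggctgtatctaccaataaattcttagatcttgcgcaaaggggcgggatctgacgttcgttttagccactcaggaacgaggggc
Dnajc3: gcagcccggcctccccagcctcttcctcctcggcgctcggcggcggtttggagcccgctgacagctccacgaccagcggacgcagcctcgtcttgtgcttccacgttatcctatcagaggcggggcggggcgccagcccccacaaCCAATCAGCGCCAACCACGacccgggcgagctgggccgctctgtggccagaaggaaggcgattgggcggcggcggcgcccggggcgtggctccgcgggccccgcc
Canx, the lectin chaperone calnexin, had 155, 176 and 209.6 scaled TPM in M livers and 63.3, 76.3 and 101 in C livers (log2 change 1.18, SE 0.20, adjusted p = 0.0118). Dnajc3, a co-chaperone of BiP, had 141, 327 and 282 in M and 71.9, 74.6 and 105 in C (1.5, adjusted p = 0.0337). M was above C in every library for both. Hspa5, which encodes BiP and whose promoter also holds the element, had 624, 2537 and 1809 in M and 309, 376 and 730.4 in C (1.69, adjusted p = 0.135), with M replicate 24 below C replicate 4.

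The 2 other called genes of that list are Atf6, an ER membrane sensor, and Edem1, which takes misfolded proteins to disposal. Atf6 had 21.4, 30.3 and 34.7 scaled TPM in M livers and 10.3, 13.7 and 16.2 in C livers (log2 change 1.04, adjusted p = 0.0207). Edem1 had 57.0, 92.4 and 108 in M and 35.5, 36.3 and 47.6 in C (1.05, adjusted p = 0.0381). Neither overlapped. Genes of the PERK branch were not called. Ddit3, which encodes CHOP, had 8.54, 27.5 and 19.2 in M and 8.14, 11.7 and 15.03 in C (0.52, adjusted p = 0.39), and Atf3 had 0.816, 2.18 and 7.01 in M and 0.792, 0.771 and 0.768 in C (1.01, adjusted p = 0.146). Without M replicate 27 or C replicate 3 the calls of Canx (0.0615), Atf6 (0.0900), Dnajc3 and Edem1 (0.127 and 0.143) were lost. Atf6 was also lost without M replicate 26 or C replicate 2, and Dnajc3 and Edem1 also without M replicate 26, A-C replicate 9, C replicate 2 or C replicate 4. Of 17 tested genes on a list of cytosolic heat shock genes, which also holds the mitochondrial Hspd1, 4 rose and 1 fell. That is 29.4% called, against 16.1% of all genes. The median change was 0.36 (5 and 0 in the TPM as deposited, and none that rose without M replicate 26, M replicate 27, C replicate 2 or C replicate 3). Hsph1, an Hsp110 chaperone, averaged 40.3 ± 9.08 in M and 17.8 ± 4.23 in C (SD, n = 3 each, adjusted p = 0.0189), and Hspd1, the mitochondrial chaperonin, 431 ± 51.6 in M and 253 ± 49.3 in C (adjusted p = 0.0285). The one that fell, Cryab, averaged 2.87 ± 0.545 in M and 4.64 ± 0.557 in C (adjusted p = 0.0322, and 0.11 in the TPM as deposited). All 3 were lost without M replicate 26, M replicate 27 or C replicate 3 (up to 0.117), Hsph1 and Hspd1 also without C replicate 2, and Cryab also without A-C replicate 9 or C replicate 4.

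Metal handling genes rose and fell. Of 27 tested genes of metallothioneins, zinc and iron handling, 6 rose and 2 fell (Hamp and Id1, above), with a median change of 0.23. Calls made up 29.6% of the list, against 16.1% of all genes. None rose without M replicate 27 or C replicate 3, 1 without M replicate 26, A-C replicate 9, C replicate 2 or C replicate 4, and 9 in the TPM as deposited. Metallothioneins bind zinc and are induced by the metal sensor MTF1 and by glucocorticoids. The core of the metal response element, searched as TGCACNC on both strands, was found in 5 of 25 promoters of the list and in 10.4% of all promoters. The Mt1 and Mt2 promoters, 250 bases before the RefSeq start on build GRCm38.p6 (mm10), are shown with that core in capitals, at chr8:94178839-94179088 and chr8:94172368-94172617, both on the plus strand.
Mt1: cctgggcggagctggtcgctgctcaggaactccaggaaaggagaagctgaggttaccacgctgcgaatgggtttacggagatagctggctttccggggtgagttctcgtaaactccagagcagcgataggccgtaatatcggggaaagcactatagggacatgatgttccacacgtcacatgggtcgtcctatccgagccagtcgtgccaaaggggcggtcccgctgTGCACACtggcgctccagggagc
Mt2: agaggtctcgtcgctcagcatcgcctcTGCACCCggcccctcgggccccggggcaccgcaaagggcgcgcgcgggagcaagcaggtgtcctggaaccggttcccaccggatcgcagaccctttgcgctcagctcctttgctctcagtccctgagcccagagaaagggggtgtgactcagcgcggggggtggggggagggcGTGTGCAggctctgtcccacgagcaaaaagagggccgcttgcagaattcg
Mt1 had 1932, 5994 and 5466 scaled TPM in M livers and 812, 226 and 245 in C livers (log2 change 3.48, SE 1.01, adjusted p = 0.0481). Mt2 had 12.4, 17.8 and 26.8 in M and 2.90, 1.49 and 0.341 in C (3.02, SE 0.83, adjusted p = 0.0414). M replicate 24 was the lowest and C replicate 2 the highest of their groups in both, without overlap. Slc39a4, a zinc importer, had 32.9, 24.2 and 26.96 in M and 12.1, 14.1 and 15.3 in C (0.96, adjusted p = 0.0117). Hmox1, the heme oxygenase, had 15.2, 56.0 and 33.9 in M and 10.5, 9.48 and 11.8 in C (1.46, adjusted p = 0.0413). It was also 1 of 4 genes that rose among 31 tested NRF2 and glutathione genes, of which none fell by limma (3 lower at an unadjusted p under 0.05; median 0.20). That is 12.9% called, below the 16.1% over all genes, with 11 that rose in the TPM as deposited and none without M replicate 26, M replicate 27 or any C library. Nqo1, the quinone reductase of that list, averaged 9.74 ± 2.47 in M and 4.82 ± 0.647 in C (SD, n = 3 each, adjusted p = 0.0366). Slc39a4 lost its call without M replicate 27 or C replicate 3 (0.0523). Mt1, Mt2, Hmox1 and Nqo1 lost theirs without M replicate 26, M replicate 27 or any C library (up to 0.157), as did Mt1, Mt2 and Hmox1 without A-C replicate 9 and Nqo1 without M replicate 24.

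Clock genes were called in both directions, 3 higher and 3 lower of 19 tested, which is 31.6%, against 16.1% of all genes. The median change was -0.35 (4 and 2 in the TPM as deposited, and none called without M replicate 26, M replicate 27 or C replicate 3). The times of day at which the livers were taken are not in the labels. Ciart, a repressor of the clock, had 24.5, 4.06 and 4.32 scaled TPM in M livers and 45.3, 46.7 and 51.6 in C livers (log2 change -2.47, SE 0.55, adjusted p = 0.0234). Noct, a rhythmic phosphatase also named nocturnin, had 8.19, 0.944 and 2.15 in M and 21.5, 14.6 and 17.2 in C (-2.28, adjusted p = 0.029). M replicate 24 stood between the other M libraries and C in both. Arntl, which encodes BMAL1, had 1.54, 2.73 and 2.28 in M and 1.31, 0.221 and 0.260 in C (1.04, adjusted p = 0.0305), and Nfil3, a D-box repressor, had 39.6, 54.6 and 85.9 in M and 21.7, 18.9 and 21.0 in C (1.43, adjusted p = 0.0185). Per1 had 17.3, 9.38 and 16.3 in M and 25.4, 23.4 and 18.9 in C (-0.66, adjusted p = 0.0684). Of 22 tested genes of steroid metabolism and glucocorticoid response, 2 fell, Cyp17a1 and the MAP kinase phosphatase gene Dusp1, and none rose by limma (none higher at an unadjusted p under 0.05 either). The share called was 9.09%, below the 16.1% over all genes, and 7 fell without M replicate 24 and none without M replicate 27. Dusp1 had 17.3, 8.69 and 12.8 in M and 33.5, 50.7 and 52.4 in C (-1.76, SE 0.29, adjusted p = 0.0106). The glucocorticoid targets Tsc22d3 (130.0, 26.9 and 31.1 in M and 170.0, 153 and 156 in C, adjusted p = 0.0862) and Fkbp5 (58.2, 41.9 and 48.2 in M and 44.3, 33.9 and 38.6 in C, adjusted p = 0.209) were not called and changed with opposite signs. Dusp1 lost its call without M replicate 27 or C replicate 3 (0.0523). Ciart, Noct, Arntl and Nfil3 lost theirs without M replicate 26, M replicate 27 or C replicate 3 (up to 0.111), Ciart, Noct and Nfil3 also without C replicate 2, Ciart, Noct and Arntl also without C replicate 4, and Arntl also without A-C replicate 9.

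Hepatocytes differ along the lobule from the portal to the central vein. Of 27 tested pericentral genes, 6 rose and none fell by limma (1 lower at an unadjusted p under 0.05), with a median change of 0.64 (0.32 without M replicate 24), and 10 rose in the TPM as deposited. Leaving out 1 library gave 8 that rose without A-C replicate 12, 3 without A-C replicate 9 or C replicate 4, 2 without C replicate 2 and 1 without M replicate 26, M replicate 27 or C replicate 3. Of 24 tested periportal genes, 2 rose and 5 fell, with a median of -0.53 (3 and 3 in the TPM as deposited). The number that fell was 11 without M replicate 24, 3 without C replicate 4 and 2 without M replicate 26, M replicate 27 or C replicate 3. Calls made up 22.2% of the pericentral and 29.2% of the periportal genes, against 16.1% of all genes. Among the pericentral genes, Lgr5, a receptor that enhances Wnt signalling, had 1.20, 1.65 and 2.28 scaled TPM in M livers and 0.450, 0.709 and 0.849 in C livers (log2 change 0.69, adjusted p = 0.0311). Axin2, a direct Wnt target, had 2.65, 3.53 and 3.55 in M and 2.18, 1.26 and 1.39 in C (0.71, adjusted p = 0.0262). Both were low and did not overlap between groups. Among the periportal genes, Serpina12, which encodes vaspin, had 20.001, 7.50 and 11.4 in M and 65.7, 115 and 125 in C (-2.93, SE 0.34, adjusted p = 0.0029). Arg1, arginase of the urea cycle, had 1210.1, 918 and 907 in M and 2652, 2262 and 1984 in C (-1.19, SE 0.18, adjusted p = 0.00781). Cdh1, E-cadherin, had 5.71, 3.01 and 2.97 in M and 7.90, 14.96 and 13.2 in C (-1.41, adjusted p = 0.0174). Serpina12 and Arg1 were called in all 9 fits that left out 1 library, and Cdh1 was lost without M replicate 26, M replicate 27 or C replicate 3 (up to 0.0801). Lgr5 and Axin2 were lost without those 3 or C replicate 4, and Lgr5 also without C replicate 2 (up to 0.114).

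In glucose metabolism, 4 of 22 tested glycolysis and glucose uptake genes rose and 1 fell (median 0.14), and 3 of 24 tested gluconeogenesis and glycogen genes rose and 1 fell (median -0.38). The shares called were 22.7% and 16.7%, the latter near the 16.1% over all genes. In the TPM as deposited the counts were 8 and 0, and 4 and 0. Without M replicate 24, 4 and 8 genes fell, and without M replicate 27, 1 rose in each list. Pdha1, the E1 subunit of pyruvate dehydrogenase, had 79.4, 69.4 and 83.7 scaled TPM in M livers and 36.0, 33.3 and 36.0 in C livers (log2 change 1.12, SE 0.12, adjusted p = 0.00269). Pcx, pyruvate carboxylase, had 364, 274 and 308 in M and 151, 169 and 141 in C (1.03, SE 0.16, adjusted p = 0.0085). Pgk1, phosphoglycerate kinase, had 245, 194 and 229 in M and 75.2, 105 and 119 in C (1.17, SE 0.19, adjusted p = 0.00979). All 3 rose without overlap, with ratios of the M mean to the C mean of 2.21, 2.05 and 2.23. Pgk1 lost its call without M replicate 27 (0.0521).

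Few genes of ethanol oxidation were called, 7.14% of those tested against 16.1% of all genes. Of 14 tested, 1 rose and none fell by limma (1 lower at an unadjusted p under 0.05), with a median change of -0.03 (0.25 in the TPM as deposited). Cyp2e1, the ethanol-inducible P450, whose protein is also raised after transcription, had 9432, 7013 and 6818 scaled TPM in M livers and 5832, 5640.1 and 7168 in C livers (log2 change 0.31, adjusted p = 0.379). Adh1, the main alcohol dehydrogenase, had 1652, 1276 and 1738 in M and 1858, 1868 and 1841 in C (-0.27, adjusted p = 0.477). Catalase, Cat, had 2508, 1586 and 1859 in M and 2197, 2286 and 2404 in C (-0.24, adjusted p = 0.557). In the TPM as deposited, Adh1 and Cat took the opposite sign. Aldh2, the acetaldehyde dehydrogenase, had 1236, 1019 and 1081 in M and 781, 942 and 917 in C (0.34, adjusted p = 0.191). The gene that rose was Acss3, a mitochondrial acyl-CoA synthetase, with 5.03, 2.43 and 2.52 in M and 0.962, 0.611 and 0.466 in C (1.32, adjusted p = 0.0188), a call lost without M replicate 27, C replicate 3 or C replicate 4 (up to 0.0752). None of 22 tested bile acid genes was called by limma (2 at an unadjusted p under 0.05, both higher). Cyp7a1, the rate-limiting enzyme of bile acid synthesis, had 96.0, 15.2 and 2.80 in M and 56.7, 69.0 and 109 in C (-2.07, SE 1.26, adjusted p = 0.27). Cyp8b1, which makes cholic acid, had 348, 267 and 119 in M and 267, 372 and 285 in C (-0.45, adjusted p = 0.673). The M libraries spread widely in both. None of 13 mitochondrially encoded mRNAs was called by limma (8 lower at an unadjusted p under 0.05), with a median of -0.65. M lay below C without overlap in 10 of them, against 17.9% of all genes. The median was -0.36 when C replicate 2, which stood apart in these mRNAs, was left out, and -0.37 in the TPM as deposited.

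Some single genes outside these routes changed by large amounts. Tff3, a trefoil peptide (chr17:31125306-31129646, mm10), had 4.38, 2.89 and 2.94 scaled TPM in M livers, against 126, 333 and 472 in C livers (log2 change -5.96, SE 0.48, adjusted p = 0.00124). Cib3, a calcium-binding protein gene, had 0.613, 0.148 and 0.174 in M and 11.4, 38.4 and 13.8 in C (-3.90, SE 0.44, adjusted p = 0.00289). Both were called in all 9 fits that left out 1 library. Prg4, the secreted glycoprotein lubricin, had 28.8, 155 and 178 in M and 12.2, 11.3 and 10.5 in C (2.93, SE 0.78, adjusted p = 0.0387), a call lost without M replicate 26, M replicate 27, A-C replicate 9 or any C library (up to 0.142).

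Several immunoglobulin and MHC class II genes fell. Of 9 tested B cell, plasma cell and MHC class II genes, 5 fell and none rose by limma (none higher at an unadjusted p under 0.05 either). That is 55.6% called, against 16.1% of all genes. The median change was -0.68, and 12 more genes were below the level filter. The number that fell was 1 without C replicate 3, 3 without M replicate 26, M replicate 27 or C replicate 2 and in the TPM as deposited, and up to 6 otherwise. Igkc, the kappa light chain constant region (chr6:70726435-70726966, mm10), had 6.08, 4.56 and 3.25 scaled TPM in M livers, against 38.5, 36.3 and 25.1 in C livers (log2 change -2.61, SE 0.23, adjusted p = 0.0016), in all 9 fits that left out 1 library. Ighm, the mu heavy chain, had 2.33, 3.02 and 1.66 in M and 5.88, 7.30 and 5.23 in C (-1.11, adjusted p = 0.00981). Jchain, which joins secreted IgA and IgM, had 0.381, 0.352 and 0.560 in M and 1.32, 1.38 and 1.31 in C (-0.71, adjusted p = 0.00981). H2-Aa, an MHC class II chain, averaged 7.30 ± 1.31 in M and 12.2 ± 1.21 in C (SD, n = 3 each, adjusted p = 0.0189). The whole list summed to 110.2, 78.3 and 66.1 in M and 165, 176 and 150.3 in C. The calls of Ighm and Jchain were lost without C replicate 3 (0.0502 and 0.0523), and that of H2-Aa without M replicate 26, M replicate 27, C replicate 2 or C replicate 3 (up to 0.0833) and in the TPM as deposited (0.061).

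Of 26 tested stellate cell and matrix genes, 5 fell and 1 rose (3 and 6 in the TPM as deposited). That is 23.1% called, against 16.1% over all genes, and none was called without M replicate 26, M replicate 27 or C replicate 3. Col3a1, type III collagen, had 2.601, 1.97 and 1.83 scaled TPM in M livers and 4.47, 7.21 and 5.497 in C livers (log2 change -1.09, adjusted p = 0.0166), and Vim, vimentin, had 6.07, 5.15 and 4.28 in M and 18.3, 12.8 and 9.96 in C (-1.22, adjusted p = 0.0199). Lrat, which stores retinol esters in stellate cells, rose, with 6.61, 10.1 and 9.54 in M and 5.04, 3.997 and 4.30 in C (0.83, adjusted p = 0.0209). Endothelial markers had 2 genes higher of 25, the VEGF receptor gene Kdr (5.95 ± 0.853 in M and 3.78 ± 0.753 in C, SD, n = 3 each, adjusted p = 0.0487) and the sinusoidal lectin gene Clec4g (40.4 ± 10.5 in M and 21.0 ± 4.17 in C, adjusted p = 0.0293). Kupffer cell markers had 2 higher of 16, among them Cd5l, with 48.7, 48.3 and 43.8 in M and 16.3, 22.8 and 32.1 in C (1.003, adjusted p = 0.0253). The shares called, 8% of endothelial and 12.5% of Kupffer cell markers, were below the 16.1% over all genes. Of 13 tested chemokine and neutrophil genes, 1 rose and 2 fell, which is 23.1% called. The chemokine Ccl6 rose, at 9.59, 19.9 and 16.7 in M and 3.77, 2.91 and 4.58 in C (1.74, adjusted p = 0.0163). Ccl5 fell, at 1.58, 1.28 and 1.17 in M and 5.38, 4.12 and 3.13 in C (-1.13, adjusted p = 0.0172). None of the monocyte, bile duct, T and NK cell or erythroid markers that passed the level filter (6, 8, 2 and 7 genes) was called by limma, and 1 T and NK cell marker was lower at an unadjusted p under 0.05. The calls of these genes given with values were each lost without M replicate 26, M replicate 27 or C replicate 3, with adjusted p up to 0.163 for Kdr. Those of Vim, Cd5l, Ccl5, Ccl6, Kdr and Clec4g were also lost without C replicate 2, those of Lrat, Kdr and Clec4g also without C replicate 4, and that of Kdr also without A-C replicate 6 or A-C replicate 9.

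Of 32 tested interferon-stimulated genes, 2 rose and 4 fell, with a median change of -0.34 (3 and 2 in the TPM as deposited). The share called, 18.75%, was near the 16.1% over all genes. None was called without M replicate 26, M replicate 27 or C replicate 3, and without M replicate 24, 12 fell. Rtp4, a chaperone of receptors, had 7.35, 5.70 and 5.38 scaled TPM in M livers and 13.2, 11.7 and 13.7 in C livers (log2 change -0.97, adjusted p = 0.0165). Xaf1 had 1.56, 0.937 and 0.961 in M and 2.11, 2.75 and 2.79 in C (-0.73, adjusted p = 0.0221). Irgm2, an immunity-related GTPase, had 14.9, 24.4 and 24.3 in M and 5.14, 9.63 and 10.4 in C (1.26, adjusted p = 0.0254). The groups did not overlap in these 3. All 3 calls were lost without M replicate 26, M replicate 27 or C replicate 3 (up to 0.105), those of Rtp4 and Irgm2 also without C replicate 2 and that of Xaf1 also without C replicate 4.

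**Figure D5:**
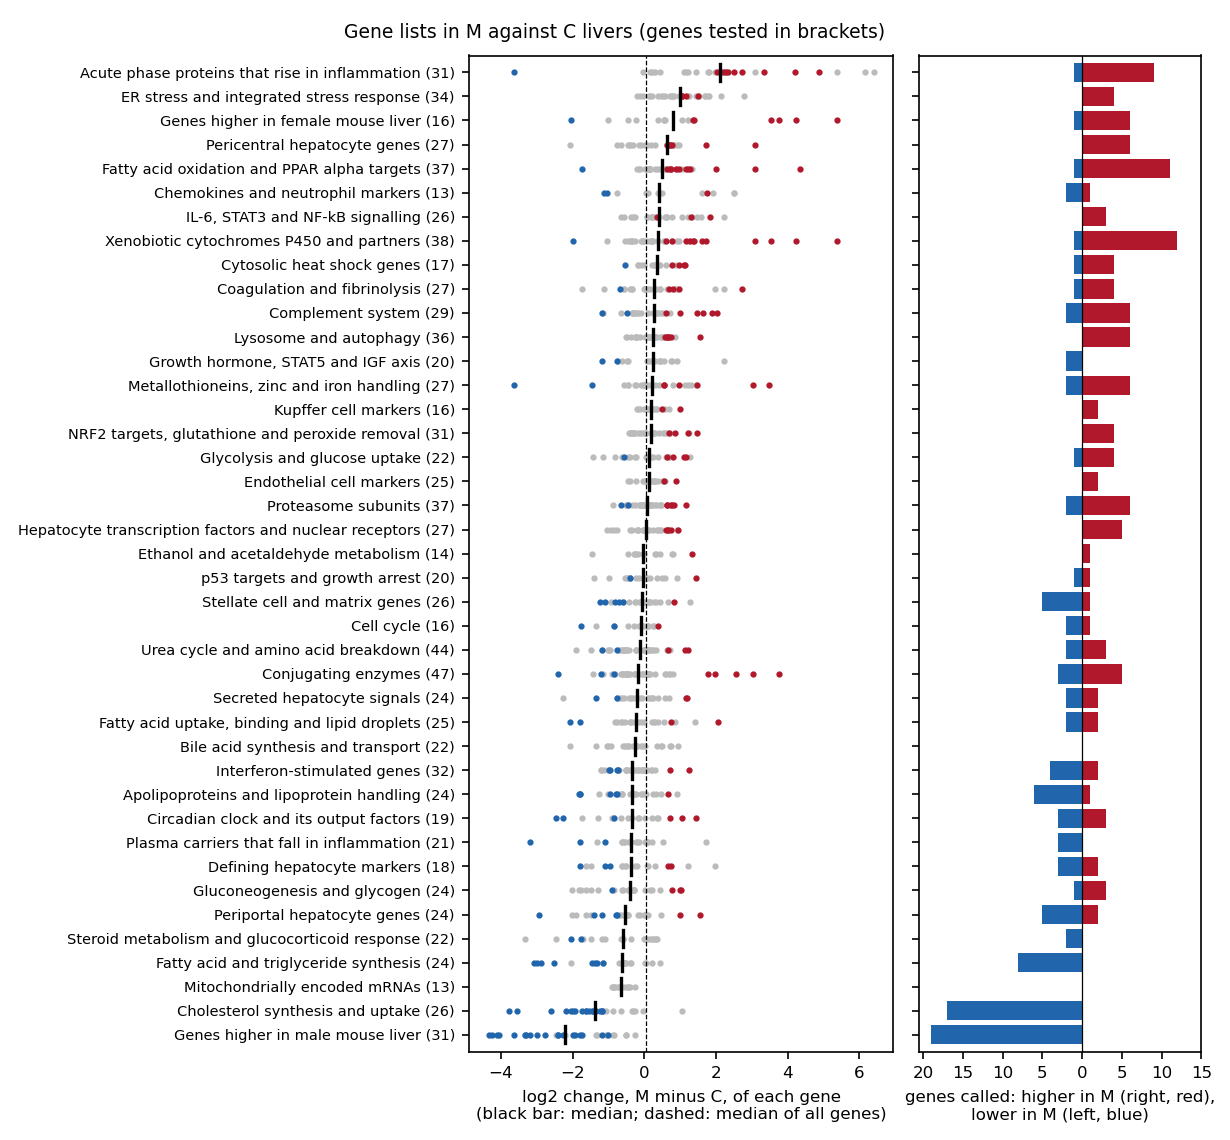
Change of M minus C in log2(scaled TPM + 1) for each tested gene (dots) of the lists with at least 12 tested genes, with the list's median as a black bar, the median of all genes as a dashed line and the numbers called higher and lower on the right. The lowest medians are those of the male-biased genes (-2.20) and cholesterol synthesis (-1.38), and the highest is that of the acute phase genes (2.10).

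Group A-C gave a second setting for these values. M against C and A-C against C share the C libraries, so their values are set side by side and the difference is tested as M against A-C. There, 19 genes (0.171%) were called, 13 of which were also called, in either direction, in M against C. A-C against C had 16.8% of genes called. Sqle averaged 1.15 ± 0.227 scaled TPM in M, 24.7 ± 5.58 in A-C and 24.3 ± 5.68 in C (SD, n = 3 each), and M differed from A-C by -3.56 on the log2 scale (adjusted p = 0.000337). Nsdhl averaged 3.78 ± 1.07 in M, 23.7 ± 8.86 in A-C and 63.5 ± 9.01 in C (M minus A-C -2.33, adjusted p = 0.0177). Idi1 averaged 1.43 ± 0.696 in M, 23.8 ± 7.07 in A-C and 7.33 ± 2.91 in C (M minus A-C -3.35, adjusted p = 0.0116). The sterol genes Hmgcs1, Cyp51, Lss and Tm7sf2 were also lower in M than in A-C (-1.76, -1.91, -0.98 and -1.28, adjusted p at most 0.0384). Dhcr7, Msmo1 and Insig1 were not called between M and A-C (-1.89, -2.56 and -0.83, adjusted p = 0.0938, 0.0929 and 0.424 by limma). Cyp17a1 averaged 6.05 ± 0.960 in M, 46.8 ± 11.5 in A-C and 30.4 ± 16.9 in C (M minus A-C -2.75, adjusted p = 0.0177).

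Cfd and Gstm3 differed between M and A-C in other ways. Cfd averaged 14.4 ± 7.003 scaled TPM in M, 1.03 ± 0.517 in A-C and 3.86 ± 1.90 in C (SD, n = 3 each; M minus A-C 2.87, adjusted p = 0.0177). Gstm3, a mu-class glutathione transferase with close paralogs, averaged 25.4 ± 8.69 in M, 306 ± 106 in A-C and 39.1 ± 5.47 in C (M minus A-C -3.53, adjusted p = 0.00908), and its change in M against C was not called (-0.65, adjusted p = 0.183). Cyp2b9, Fasn and Tff3 were not called in that test. Cyp2b9 averaged 41.6 ± 3.55 in M and 39.2 ± 6.24 in A-C (0.09, adjusted p = 0.856), Fasn averaged 21.1 ± 3.60 in M and 37.6 ± 15.1 in A-C (-0.73, adjusted p = 0.391) and Tff3 averaged 3.40 ± 0.844 in M and 8.49 ± 3.93 in A-C (-1.03, adjusted p = 0.453). A p above the threshold does not show that such levels were alike. The number called between M and A-C was 3 without M replicate 26 or A-C replicate 9, 5 without M replicate 27, 7 without A-C replicate 6 and 30 without M replicate 24.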

How the data were processed

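Liver RNA of 9 libraries was sequenced, and the 6 of groups M and C are described here. Per the labels, total RNA was made into libraries with a commercial kit, and per the submitters' processing notes the genome build was mm10. Aligner, counter and strandedness: not given in the sources used here. Expression values were deposited by the authors as TPM in a single table, whose header gives gene ID, symbol, exon coordinates and exon length. Of its 32248 lines, 452 belong to 168 gene IDs listed under several symbols with identical values, and 1 line per gene ID was kept, leaving 31964.

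TPM times exon length came within 0.1 of a whole multiple of 1 step per library for at least 99.965% of values above 0, so read numbers were recovered (45597163 to 65165613 per library; whether single reads or pairs is not known). They were used only for depth and for TMM factors, which trimmed 30% of the log ratios and 5% of the levels and gave divisors of 1.07 to 1.10 in M, 1.00 to 1.09 in A-C and 0.867 to 0.902 in C. Beyond sampling noise, no 2 libraries differed in fewer than 5005 genes, so none was taken for a copy.

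Genes with TPM of at least 1 in at least 3 of 9 libraries were tested with limma (version 3.58.1, R 4.3.3) on log2(TMM-scaled TPM + 1), with a mean per group, trend and robust settings, 6 residual degrees of freedom and Benjamini-Hochberg adjustment at 0.05. The procedure was tested on simulated data. The 48 gene lists hold 1253 entries, of which 1247 matched the table, and carry no set test. Members and lists were chosen with earlier results of these data known. Named genes are the largest called changes with non-overlapping groups, the called list members with the largest changes, the most abundant members of lists without a call, cell type markers and a fixed set of liver genes. Hmgcs1, Idi1, Tm7sf2, Lss, Insig1, Srebf2, Cyp3a13, Gstm6, Pnpla3, Lbp, Crp, Hspa5, Ddx3y and Eif2s3y were added after their values were seen, as were the promoter motifs. Elovl5, Elane, Mmp8, Cxcr2 and Camp also lie outside this naming rule. Some genes that this rule names are counted in their lists and not reported here. Promoters are those of RefSeq on GRCm38.p6. Alternatives were TPM as deposited, median-of-ratios scaling, a pseudocount of 0.1, no level filter, the 2 groups' 6 libraries alone, no trend or robust settings, and each library left out.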

Additional observations from a re-analysis of the deposited data

How the results depend on the processing

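Against 1030 genes higher and 751 lower in M than in C, TPM as deposited gave 2931 and 351, and no level filter 586 and 500. Leaving out 1 library gave 122 to 1414 higher and 72 to 1098 lower. The counts stayed within 1.5 times under median-of-ratios scaling, a pseudocount of 0.1, the 6 M and C libraries alone and limma without trend or robust settings. Against 19 genes called between M and A-C, no level filter gave 6, the 6 libraries of those groups alone 2, and leaving out 1 library 3 to 30. The cause of these moves was not tested. Of 151 genes named, 122 were called in M against C, 90 of them under every alternative other than a left-out library, and 40 also with each library left out. The changes that turned sign were not called in either setting: in the TPM as deposited Srebf2 was at 0.0016, Cpt1a at 0.0757, Adh1 at 0.0131, Cat at 0.0443 and Eif2s3y at 0.165, and Cpt1a ran from -0.39 (without M replicate 24) to 0.0183 (without M replicate 26). No paired analysis was possible because the groups compared share no replicate numbers. With 3 libraries per group, M and C did not overlap in 41.6% of genes, and 16.1% were called.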

Other observations

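Some gene groups outside the routes above also held calls. Of 37 tested proteasome subunit genes, 6 rose in M livers and 2 fell, which is 21.6% called, against 16.1% of all genes. The median change was 0.07, near the 0.05 over all genes. In the TPM as deposited the counts were 13 and 0, and none was called without M replicate 27 or C replicate 3. Those that rose encode subunits of the base and the lid of the regulatory particle. Psmd13, of the lid, had 42.4, 41.8 and 45.0 scaled TPM in M and 12.5, 18.8 and 26.9 in C (log2 change 1.17, adjusted p = 0.0158 by limma). Psmd2, of the base, had 80.1, 76.0 and 90.2 in M and 34.4, 48.8 and 56.1 in C (0.83, adjusted p = 0.0233). Psme1, of the interferon-induced activator PA28, fell, with 82.4, 74.3 and 76.3 in M and 124, 129.7 and 116 in C (-0.66, adjusted p = 0.0229). M and C did not overlap in any of the 3. The calls were lost without M replicate 27 or C replicate 3, and those of Psmd2 and Psme1 also without M replicate 26 or C replicate 2 (up to 0.0981).

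Of 36 tested lysosome and autophagy genes, 6 rose and none fell by limma (1 lower at an unadjusted p under 0.05), with a median change of 0.26. The share called, 16.7%, was near the 16.1% over all genes. In the TPM as deposited 17 rose. Leaving out 1 library gave 8 that rose without A-C replicate 12, 2 without C replicate 4, 1 without A-C replicate 9 and none without M replicate 26, M replicate 27, C replicate 2 or C replicate 3. Ctsc, a lysosomal dipeptidyl peptidase, had 21.2, 44.6 and 57.6 scaled TPM in M and 10.6, 11.6 and 14.99 in C (1.55, adjusted p = 0.0226). Sqstm1, the autophagy receptor p62, had 216, 288 and 269 in M and 131, 171 and 177 in C (0.69, adjusted p = 0.0395). Of 27 tested hepatocyte transcription factor and nuclear receptor genes, 5 rose and none fell by limma (2 lower at an unadjusted p under 0.05), with a median of 0.05. The share called, 18.5%, was near that over all genes. The number that rose was 9 in the TPM as deposited, 2 without M replicate 26 or C replicate 4, 1 without C replicate 2 and none without M replicate 27 or C replicate 3, and 3 fell without M replicate 24. Hnf4a, the master factor of hepatocyte identity, had 337, 367 and 492 in M and 256, 229 and 224 in C (0.74, adjusted p = 0.045), Onecut2 had 12.5, 16.5 and 19.9 in M and 9.30, 7.15 and 7.52 in C (0.93, adjusted p = 0.018), and Rxra, the partner of PPAR alpha and CAR, had 136, 113 and 141 in M and 72.5, 82.8 and 88.4 in C (0.67, adjusted p = 0.0225). All M libraries exceeded all C libraries for these 5 genes. Their calls were lost without M replicate 27 or C replicate 3 (up to 0.166 for Hnf4a). Those of Ctsc, Sqstm1, Hnf4a and Onecut2 were also lost without M replicate 26, those of Ctsc, Sqstm1, Hnf4a and Rxra also without C replicate 2, and those of Sqstm1 and Hnf4a also without A-C replicate 9 or C replicate 4.

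Other single genes moved without overlap between M and C. Selenop, the plasma selenium carrier, had 4233, 4151 and 5246 scaled TPM in M and 1543, 2126 and 2323 in C (1.20, adjusted p = 0.0129). Fas, the death receptor, had 27.7, 44.6 and 49.0 in M and 13.5, 13.02 and 14.9 in C (1.45, adjusted p = 0.0161). Tsku, a secreted protein of the liver, had 66.2, 35.5 and 43.9 in M and 125, 118 and 121 in C (-1.35, adjusted p = 0.0259), and Rrm2, a ribonucleotide reductase subunit, had 6.47, 2.53 and 2.96 in M and 15.7, 13.1 and 16.04 in C (-1.75, adjusted p = 0.0158). The 4 calls were lost without M replicate 27 or C replicate 3, those of Fas, Tsku and Rrm2 also without M replicate 26 or C replicate 2, and that of Tsku also without C replicate 4 (up to 0.103).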
